A study of Mus musculus with 12 samples.

Results

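Pdgfra, Olig1, Olig2, Sox10, C1ql1, Gpr17, Neu4, Vcan, Ptprz1 and Lhfpl3 are 10 genes that mark oligodendrocyte precursor cells. They were taken by symbol from the 53379 genes of the count table, and all 10 had 1 row each and were among the 19252 genes that passed the filter on low counts. RNA came from brain tissue, called injured cortex in the series text, of wild-type C57BL/6J mice 6 months after the injury. The tissue was collected after rlmTBI, a closed head injury that is repeated and less than mild, or after sham handling. Each injury state was combined with cycles of a high-fat diet that held fish oil, or with an uninterrupted purified control diet. The 4 groups were fish oil injured, fish oil sham, purified injured and purified sham, with 3 libraries each, numbered 2 to 4 in the labels. Because the diets differ in fat and in schedule as well as in fish oil, a diet comparison here covers all of these. The labels do not say that each library came from its own animal, so p-values cover library-to-library spread, which may be partly technical.

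The precursor cells are the dividing glia of the adult brain from which new myelinating oligodendrocytes arise. They divide and survive on PDGF-A, which acts through the receptor PDGFRα, and the transcription factors OLIG1, OLIG2 and SOX10 hold them in the lineage. As they commit, they pass through a short stage marked by the receptor GPR17 and then switch on the myelin genes. In cortex they are spread evenly between neurons and are known to gather and divide around tissue injury.

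Totals ran from 46362158 to 70754854 counts per library. Levels are given as CPM, counts scaled to library size, with TMM factors, and differences as log2 fold changes ± SE from edgeR's quasi-likelihood test across all 19252 tested genes. Some libraries were high in genes of tissue other than cortex: the summed CPM of 4 olfactory bulb genes was 656 in purified injured 3 and at most 26.9 in the other 11. The sum of 8 striatal genes was 1608 in fish oil sham 2 and 647 in purified sham 4, against 99.0 to 319 elsewhere. The sum of 8 choroid plexus genes was 222 to 2643 in fish oil injured libraries, 35.5 to 65.3 in fish oil sham, 22.8 to 49.7 in purified injured and 30.0 to 476 in purified sham. Precursor genes are also used by other cells, Pdgfra by fibroblasts of the meninges, Ptprz1 by astrocytes, and Olig1, Olig2 and Sox10 by mature oligodendrocytes. In such bulk RNA, fewer cells of a type and less RNA per cell cannot be told apart.

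No gene of the 19252 passed an adjusted p of 0.05 in any of the 7 comparisons, and the share called was 0.0% in each, so none of the 10 precursor genes was called. An unadjusted p below 0.05 was met by 670 to 2063 genes, and DESeq2 called 3 to 186 genes and limma-voom 0 to 2, none of them a precursor gene. The transcripts of all 10 were present in all 12 libraries, from 45 counts for C1ql1 to 28233 counts for Ptprz1. Between libraries the 10 genes did not vary as a single set: of 45 gene pairs 3 were correlated by both measures used below, Pdgfra with Gpr17, Olig1 with Neu4, and Vcan with Lhfpl3. Fish oil sham libraries averaged higher than purified sham libraries for all 10 genes, by 0.04 to 1.45 on the log2 scale, with unadjusted p below 0.05 for C1ql1 alone.

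**Figure D1:**
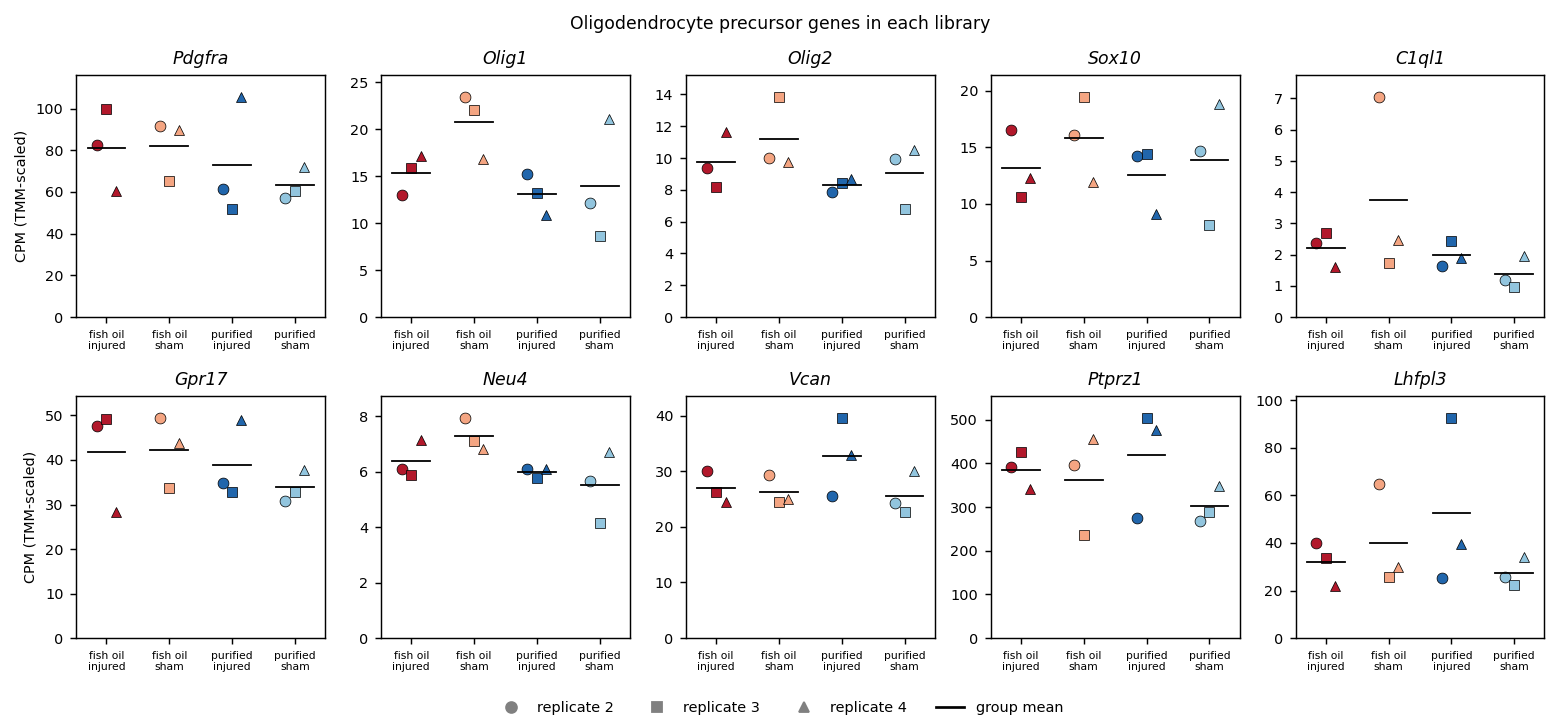
TMM-scaled CPM of each of the 10 precursor genes in the 12 libraries, one panel per gene, with a point for each library (shape by replicate number) and a line at the mean of each group of 3. The groups overlap almost everywhere, with single high libraries for C1ql1 (7.05 CPM in fish oil sham 2) and Lhfpl3 (92.6 CPM in purified injured 3).

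Per kilobase of exon, Ptprz1 had the highest mean level over the 12 libraries, at 25.8 CPM per kilobase, followed by Lhfpl3 at 11.8. Gpr17, Pdgfra and Olig1 came next at 7.54, 7.47 and 7.30 CPM per kilobase, and their ranges over libraries, 5.44 to 9.53, 5.18 to 10.5 and 3.98 to 10.9, did not separate them. Sox10 and Olig2 stood at 4.55 and 3.79, and Vcan, C1ql1 and Neu4 at 1.93, 1.58 and 1.36 CPM per kilobase. The length is the union of annotated exons, so a gene whose brain transcript is shorter than that union is understated. C1ql1 differed most between libraries, its highest being 7.37 times its lowest, followed by Lhfpl3 at 4.19 times, Olig1 at 2.73 and Sox10 at 2.39. For the other 6 genes this ratio was 1.75 to 2.14.

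RefSeq start sites on GRCm38.p6 were given for 6 of the 10 genes. The windows of 250 bases before to 50 after the start are shown for the genes that have one among the pairs that varied together, Pdgfra of the pair with Gpr17, Neu4 of the pair with Olig1, and Vcan with Lhfpl3. Olig2 is shown for its place beside Olig1 on the chromosome. Capitals mark the E-box CANNTG, which bHLH factors such as OLIG2 bind, and the SOX core ACAANG, each searched on both strands. The windows are chr5:75152001-75152300 on the plus strand for Pdgfra, chr1:94020243-94020542 on the plus strand for Neu4, chr16:91225300-91225599 on the plus strand for Olig2, chr13:89742463-89742762 on the minus strand for Vcan and chr5:22745804-22746103 on the plus strand for Lhfpl3, each read 5′ to 3′.
Pdgfra: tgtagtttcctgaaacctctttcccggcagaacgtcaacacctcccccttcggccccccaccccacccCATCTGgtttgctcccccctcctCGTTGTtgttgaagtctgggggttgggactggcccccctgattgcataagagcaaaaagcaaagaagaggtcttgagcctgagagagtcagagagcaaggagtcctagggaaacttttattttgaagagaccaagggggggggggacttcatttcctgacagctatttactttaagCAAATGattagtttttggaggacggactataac
Neu4: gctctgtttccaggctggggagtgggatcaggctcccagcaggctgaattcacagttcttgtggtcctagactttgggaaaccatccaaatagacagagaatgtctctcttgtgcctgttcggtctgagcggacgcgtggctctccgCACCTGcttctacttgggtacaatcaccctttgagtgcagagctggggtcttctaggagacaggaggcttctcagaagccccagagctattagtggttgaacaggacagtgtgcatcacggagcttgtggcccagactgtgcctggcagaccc
Olig2: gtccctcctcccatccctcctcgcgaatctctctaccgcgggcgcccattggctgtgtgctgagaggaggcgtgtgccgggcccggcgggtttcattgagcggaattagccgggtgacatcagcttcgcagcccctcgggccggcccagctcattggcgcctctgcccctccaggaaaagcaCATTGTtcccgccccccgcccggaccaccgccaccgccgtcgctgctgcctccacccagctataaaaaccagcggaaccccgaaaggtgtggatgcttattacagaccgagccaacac
Vcan: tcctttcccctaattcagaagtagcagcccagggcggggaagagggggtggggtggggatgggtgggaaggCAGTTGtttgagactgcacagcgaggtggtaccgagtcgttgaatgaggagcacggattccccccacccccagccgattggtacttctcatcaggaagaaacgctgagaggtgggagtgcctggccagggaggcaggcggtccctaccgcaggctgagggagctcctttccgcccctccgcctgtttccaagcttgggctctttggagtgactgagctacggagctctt
Lhfpl3: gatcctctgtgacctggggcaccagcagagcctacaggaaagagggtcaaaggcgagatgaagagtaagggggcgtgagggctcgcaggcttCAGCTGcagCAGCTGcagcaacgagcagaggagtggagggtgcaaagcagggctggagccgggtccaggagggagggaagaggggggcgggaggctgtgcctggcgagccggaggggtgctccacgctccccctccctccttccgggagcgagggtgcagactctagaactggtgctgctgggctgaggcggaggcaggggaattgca
The Pdgfra window held 2 E-boxes and 1 SOX core. The Neu4 window held 1 E-box and no SOX core, and the Olig2 window held no E-box and 1 SOX core, which reads CATTGT on the strand shown. In the Vcan window there was 1 E-box and in the Lhfpl3 window 2, both of the palindrome CAGCTG, with no SOX core in either. Of 32851 RefSeq promoter windows of the same length, 72.3% held the E-box and 41.2% the SOX core, so a match is common and is a description of letters, not a binding site.

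The genes lie on GRCm38 at chr5:75152292-75198215 (Pdgfra, plus strand), chr16:91269772-91271933 (Olig1, plus), chr11:102939264-102946688 (C1ql1, minus) and chr18:31942997-31949636 (Gpr17, minus). Neu4 lies at chr1:94020451-94028334 (plus), Vcan at chr13:89655312-89742509 (minus), Ptprz1 at chr6:22875502-23052916 (plus) and Lhfpl3 at chr5:22746059-23275597 (plus). Olig2, at chr16:91225457-91228677 on the plus strand, and Sox10, at chr15:79154908-79165240 on the minus strand, matched the annotation by identifier without its version, so their models there may differ from the ones counted. Olig1 and Olig2 are neighbours on chromosome 16. Gpr17 overlaps Lims2 on the opposite strand, which had 2.36 to 6.27 CPM, and Lhfpl3 overlaps A930003O13Rik on the opposite strand, with 0.154 to 1.94 CPM. The strand setting of the counting is not given in the sources used here, and a share of those reads may have passed between the genes.

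Pdgfra encodes PDGFRα, the receptor through which PDGF-A keeps precursors dividing. It had 82.3, 99.7 and 60.5 CPM in fish oil injured libraries, and 91.5, 65.2 and 89.9 CPM in fish oil sham. On the purified diet it had 61.6, 51.9 and 106 CPM in injured libraries, and 57.3, 60.6 and 71.8 CPM in sham. The 3 purified sham libraries were close together, and in each other group at least 1 library lay within their range or below it. After injury Pdgfra differed by -0.02 ± 0.26 on the fish oil diet and by 0.21 ± 0.26 on the purified diet, with adjusted p of 0.999 and 0.904 by edgeR's quasi-likelihood test. Fish oil against purified diet gave 0.15 ± 0.26 in injured mice and 0.38 ± 0.26 in sham mice, where the 95% interval of -0.22 to 0.98 leaves room for either direction. Without purified injured 4 the difference after injury on the purified diet was -0.15, and that of diet in injured mice was 0.50 (unadjusted p of 0.0423, adjusted p of 0.290, edgeR). Without purified injured 3 these values were 0.42 and -0.06.

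Gpr17, the receptor of committed precursors that slows their maturation, followed the same libraries. It had 47.7, 49.1 and 28.3 CPM in fish oil injured libraries, and 49.5, 33.7 and 43.8 CPM in fish oil sham. In purified injured libraries it had 34.9, 32.8 and 49.0 CPM, and in purified sham 30.9, 32.8 and 37.8 CPM. The 5 libraries above 40 CPM of Gpr17 were also the 5 above 80 CPM of Pdgfra: fish oil injured 2 and 3, fish oil sham 2 and 4, and purified injured 4. Across the 12 libraries the log2 CPM of both genes had Pearson's r = 0.93 and Spearman's rho = 0.91, with permutation p of 0.0022 and 0.0076 after Benjamini-Hochberg adjustment over 45 gene pairs. Without the 2 libraries farthest from the median of Pdgfra r was 0.90, and after subtraction of the group means it was 0.92.

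Fibroblast genes were highest in 4 of these 5 libraries, fish oil injured 2 being the exception. The mean log2 CPM of 7 meningeal fibroblast genes, among them the collagens Col1a1 and Col1a2 and the proteoglycan gene Dcn, correlated with Pdgfra at r = 0.87 and rho = 0.87 (adjusted permutation p of 0.0056 and 0.0063 over 40 pairs of gene and marker list). For Gpr17 the values were r = 0.82 and rho = 0.83 (adjusted permutation p of 0.012 and 0.0155). Summed CPM of the fibroblast list ran from 29.9 to 162 in fish oil injured libraries, 55.3 to 150 in fish oil sham, 36.8 to 178 in purified injured and 40.2 to 58.6 in purified sham, and none of the 7 genes was at 0 in any library. In sham mice all 7 fibroblast genes were higher on fish oil, with a median of 0.74 on the log2 scale and no gene called. Their part in the Pdgfra and Gpr17 values was not tested.

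Of the PDGF family 5 further genes were followed, the ligands Pdgfa, Pdgfb, Pdgfc and Pdgfd and the pericyte receptor Pdgfrb. None was called in any comparison. Pdgfc, a ligand that also acts through PDGFRα, had the smallest unadjusted p of the list after injury on the purified diet. It had 8.84, 9.95 and 9.48 CPM in purified injured libraries, and 5.29, 5.55 and 6.10 CPM in purified sham. These groups did not overlap, as for 11.6% of all genes, and the difference was 0.74 ± 0.20, with an adjusted p of 0.763 by edgeR's test. After injury on the fish oil diet 4 of the 5 genes lay above 0, with a median of 0.13 against 0.26 on the purified diet.

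Olig1 and Olig2 are bHLH transcription factors that specify the lineage and stay on in mature oligodendrocytes. Olig1 had 12.9, 15.8 and 17.2 CPM in fish oil injured libraries, and 23.5, 22.1 and 16.9 CPM in fish oil sham. It had 15.2, 13.2 and 10.9 CPM in purified injured libraries, and 12.1, 8.60 and 21.0 CPM in purified sham. Purified sham was split, with sham 4 above all 6 injured libraries and sham 3 below every other library. Fish oil against purified diet in sham mice gave 0.58 ± 0.28 (unadjusted p of 0.0605, adjusted p of 0.934, edgeR). Without purified sham 4, 1 of the libraries high in striatal genes, this value was 1.00. Its unadjusted p by edgeR's test was 0.0010 and its adjusted p 0.841. Fish oil sham 2, higher in striatal genes and highest in Olig1, stayed in that fit. Without purified sham 3 the value was 0.33. Olig1 and the mean log2 CPM of the 8 striatal genes had r = 0.64 and rho = 0.61 (adjusted permutation p of 0.114 and 0.143 over 40 pairs). The part of striatal tissue in the Olig1 values was not tested. Injury gave -0.44 ± 0.28 on the fish oil diet and -0.09 ± 0.28 on the purified diet, which became 0.34 without purified sham 4 and -0.33 without purified sham 3.

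Olig2 varied less. Its levels were 9.38, 8.19 and 11.6 CPM in fish oil injured libraries, and 10.02, 13.9 and 9.77 CPM in fish oil sham. In purified injured libraries they were 7.84, 8.42 and 8.66 CPM, and in purified sham 9.95, 6.77 and 10.5 CPM. The purified injured libraries were within 1 CPM of each other, inside the range of purified sham. The mean differences of Olig2 after injury were -0.21 ± 0.21 on the fish oil diet and -0.13 ± 0.21 on the purified diet, and those of diet were 0.23 ± 0.21 in injured and 0.31 ± 0.21 in sham mice.

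Sox10, an HMG-box factor that is on through the whole lineage and drives myelin genes, had 16.5, 10.6 and 12.3 CPM in fish oil injured libraries, and 16.1, 19.5 and 11.9 CPM in fish oil sham. It had 14.3, 14.4 and 9.10 CPM in purified injured libraries, and 14.7, 8.15 and 18.8 CPM in purified sham. All 4 groups overlapped, and the 4 pairwise differences lay between -0.27 and 0.19, each smaller than its SE. Sox10 followed the mature oligodendrocyte genes of the same libraries. Its correlation with the mean log2 CPM of 14 myelin-stage genes, such as Mbp and Mog, was r = 0.85 and rho = 0.90 (adjusted permutation p of 0.0072 and 0.0036 over 40 pairs), with r = 0.80 without the 2 farthest libraries and 0.88 within groups. Olig2 gave r = 0.74 and rho = 0.67 with that list (adjusted permutation p of 0.033 and 0.088). None of the 14 genes was at 0 in any library, and their part in the Sox10 and Olig2 values was not tested.

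Neu4 encodes a sialidase, an enzyme that removes sialic acid from glycans. Of the 10 genes, Neu4 alone had groups without overlap, in 1 of the 4 pairwise comparisons, that of diet in sham mice. Neu4 had 7.95, 7.10 and 6.81 CPM in fish oil sham libraries, and 5.65, 4.15 and 6.72 CPM in purified sham. The lowest fish oil sham library was thus just above the highest purified sham library. The difference of 0.40 ± 0.19 had an unadjusted p of 0.051 and an adjusted p of 0.934 by edgeR's test. It was 0.24 without purified sham 3 and 0.57 without purified sham 4. Of all tested genes, 6.31% had every fish oil sham library above every purified sham library, so 1 of 10 is near the background. In injured mice Neu4 had 6.09, 5.90 and 7.14 CPM on fish oil, and 6.09, 5.79 and 6.08 CPM on the purified diet, a difference of 0.09 ± 0.19.

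Neu4 went with Olig1 from library to library, with r = 0.89 and rho = 0.85 (adjusted permutation p of 0.0022 and 0.0133 over 45 pairs), 0.78 without the 2 farthest libraries and 0.85 within groups. Both genes were lowest in purified sham 3 and highest in fish oil sham 2. Neu4 and the 8 striatal genes had r = 0.63 and rho = 0.64 (adjusted permutation p of 0.123 and 0.119 over 40 pairs). Without these 2 libraries this r was 0.40. The part of striatal tissue in the Neu4 values was not tested. Olig2 with Olig1 gave r = 0.72 and rho = 0.70, and Olig2 with Neu4 r = 0.75 and rho = 0.73, with adjusted permutation p of 0.0512 to 0.0667, which misses the threshold.

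**Figure D2:**
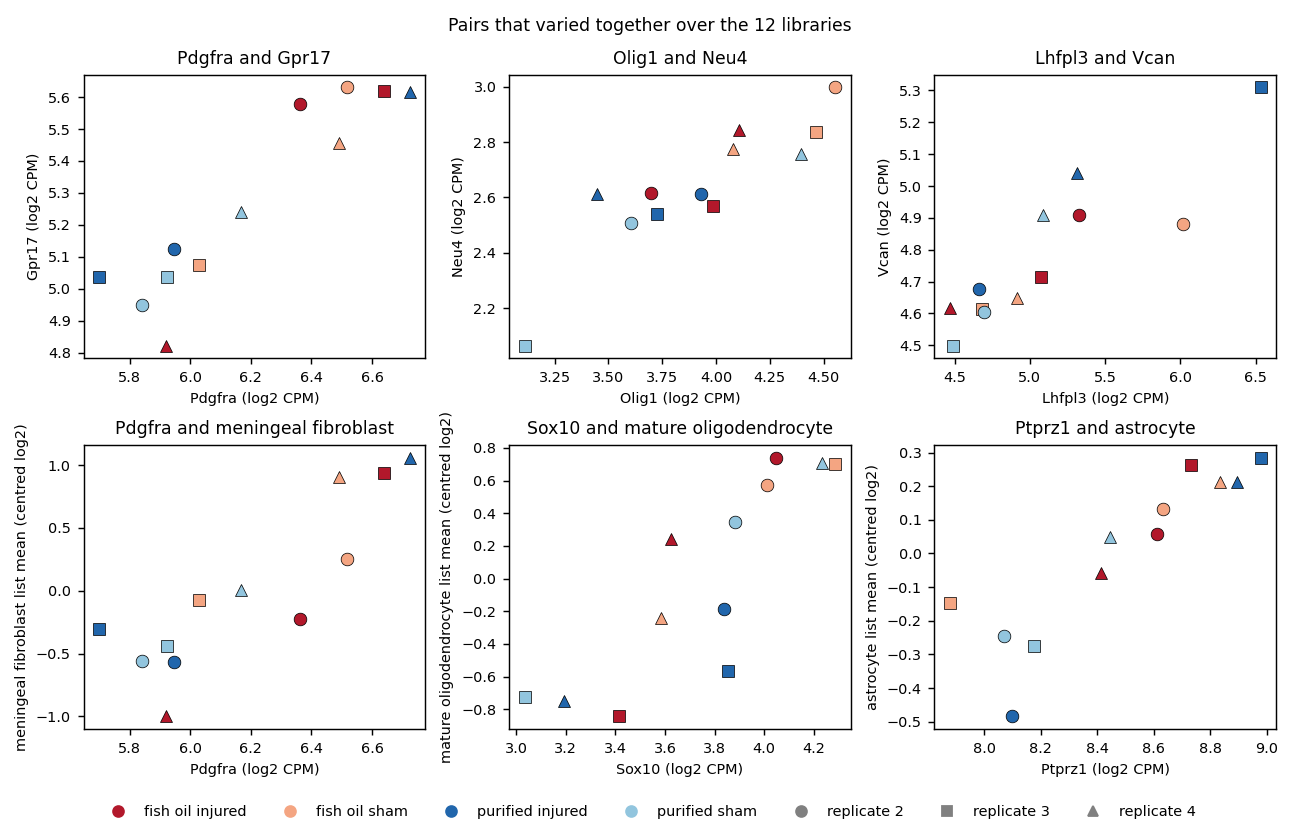
Upper row: log2 CPM of 3 pairs of precursor genes; lower row: log2 CPM of Pdgfra, Sox10 and Ptprz1 against the mean of a marker list, centred on its mean over the 12 libraries. Each point is a library, coloured by group; Pdgfra with Gpr17 (r = 0.93), Olig1 with Neu4 (r = 0.89) and Vcan with Lhfpl3 (r = 0.89) run along a diagonal on which libraries of all 4 groups mix.

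Vcan, Ptprz1 and Lhfpl3 are genes of the precursor surface and matrix. Vcan encodes versican, a chondroitin sulphate proteoglycan of the lectican family. It had 30.0, 26.2 and 24.5 CPM in fish oil injured libraries, and 29.4, 24.5 and 25.1 CPM in fish oil sham. On the purified diet it had 25.5, 39.6 and 32.9 CPM in injured libraries, and 24.3, 22.6 and 30.0 CPM in sham. Purified injured 3 and 4 were above all other libraries, while purified injured 2 lay inside the purified sham range. The difference after injury was 0.03 ± 0.17 on the fish oil diet and 0.35 ± 0.17 on the purified diet, where the unadjusted p was 0.058 and the adjusted p 0.768 by edgeR's test. That value was 0.20 without purified injured 3 and 0.50 without purified injured 2, where the unadjusted p was 0.0081 and the adjusted p 0.339. The interaction of diet and injury was -0.32 ± 0.24 (adjusted p of 0.834), or -0.09 without purified injured 3 and fish oil sham 2.

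Ptprz1 encodes a receptor tyrosine phosphatase that carries chondroitin sulphate and binds pleiotrophin. It had 390.5, 425 and 341 CPM in fish oil injured libraries, and 397, 235 and 456 CPM in fish oil sham. It had 274, 504 and 476 CPM in purified injured libraries, and 268, 289 and 348 CPM in purified sham. Purified injured 3 and 4 were again the 2 highest libraries, and purified injured 2 lay inside the purified sham range. The difference after injury was 0.09 ± 0.26 on the fish oil diet and 0.47 ± 0.26 on the purified diet (unadjusted p of 0.0952), which ran from 0.33 without purified injured 3 to 0.70 without purified injured 2. Ptprz1 also followed the 8 astrocyte genes, among them Aqp4, Gja1 and Slc1a3, with r = 0.89 and rho = 0.91 (adjusted permutation p of 0.0056 and 0.0036 over 40 pairs), and with r = 0.95 without the 2 farthest libraries and 0.92 within groups. Summed CPM of the astrocyte list was 7030 to 7725 in fish oil injured libraries, 6015 to 7550 in fish oil sham, 5627 to 7285 in purified injured and 5994 to 7328 in purified sham, with none of the 8 genes at 0. Their part in the Ptprz1 values was not tested.

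Lhfpl3 encodes a tetraspan membrane protein of the LHFPL family. It had 40.1, 33.6 and 22.1 CPM in fish oil injured libraries, and 64.6, 25.6 and 30.1 CPM in fish oil sham. It had 25.3, 92.6 and 39.7 CPM in purified injured libraries, and 25.9, 22.4 and 33.9 CPM in purified sham. Its 2 highest values stood in purified injured 3 and fish oil sham 2, the libraries highest in olfactory bulb and in striatal genes. Their part in the Lhfpl3 values was not tested. The difference after injury on the purified diet was 0.94 ± 0.47 (unadjusted p of 0.0725), or 0.26 without purified injured 3. Fish oil against purified diet in injured mice gave -0.72 ± 0.47, or -0.03 without that library, and the interaction of -1.27 ± 0.67 was -0.07 without both. Vcan and Lhfpl3 had r = 0.89 and rho = 0.85 (adjusted permutation p of 0.0030 and 0.0133 over 45 pairs), 0.81 without the 2 libraries farthest from the median of Vcan, purified injured 3 and 4, and 0.91 within groups.

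C1ql1 encodes a secreted C1q-like protein that organises synapses in the cerebellum. It was the gene with the fewest reads of the 10, 45 to 371 counts per library. It had 2.38, 2.68 and 1.60 CPM in fish oil injured libraries, and 7.05, 1.72 and 2.45 CPM in fish oil sham. It had 1.63, 2.45 and 1.88 CPM in purified injured libraries, and 1.17, 0.958 and 1.96 CPM in purified sham. Fish oil sham 2, the library highest in striatal genes, was far above the other 11 libraries. Of the other fish oil sham libraries, sham 3 lay inside the range of purified sham and sham 4 above it. C1ql1 and the 8 striatal genes had r = 0.69 and rho = 0.45 (adjusted permutation p of 0.114 and 0.297 over 40 pairs). Without fish oil sham 2 and purified sham 3 this r was 0.06. With the astrocyte list C1ql1 had r = 0.60 and rho = 0.82 (adjusted permutation p of 0.120 and 0.0155). With the precursor gene Gpr17 it had r = 0.66 and rho = 0.80 (adjusted permutation p of 0.0512 and 0.0295 over 45 pairs), below the threshold by rho alone. The part of the striatal and astrocyte genes in the C1ql1 values was not tested. Fish oil against purified diet in sham mice gave 1.45 ± 0.49, with an unadjusted p of 0.0120 and an adjusted p of 0.934 by edgeR's test. Without fish oil sham 2 this value was 0.62, with an unadjusted p of 0.126, and the difference after injury on the fish oil diet turned to 0.08 in place of -0.75 ± 0.48.

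**Figure D3:**
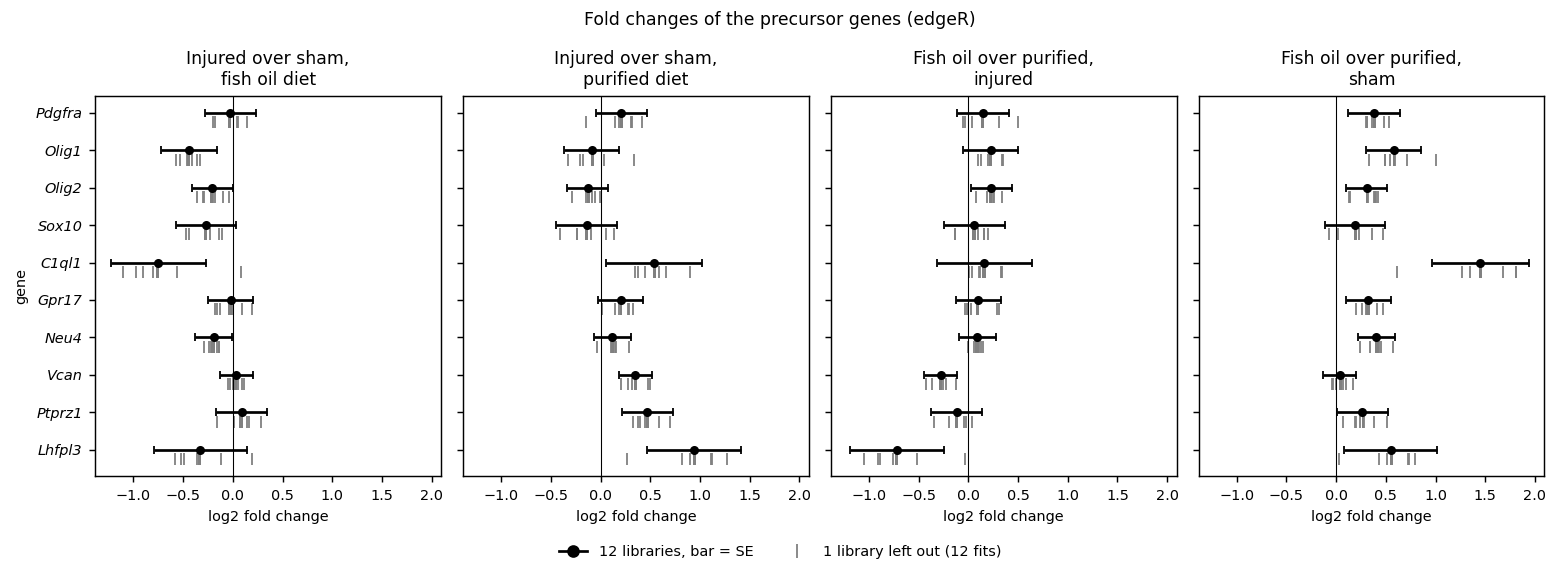
Log2 fold change of the 10 precursor genes in the 4 pairwise comparisons (point, with a bar of 1 SE either side) and the value with each library left out in turn (grey ticks). All 10 points lie above 0 for diet in sham mice, where the C1ql1 tick at 0.62 is the fit without fish oil sham 2.

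After injury on the fish oil diet 2 of the 10 genes were above 0, against 49.0% of all tested genes, and the median was -0.20 against -0.01 over all genes. The values ran from -0.75 for C1ql1 to 0.09 for Ptprz1, and no gene had an unadjusted p below 0.05, against 3.48% of all genes. Without fish oil sham 2 the median was 0.064. After injury on the purified diet 7 of the 10 were above 0, against 50.6% of all genes, with a median of 0.21 against 0.00, from -0.14 for Sox10 to 0.94 for Lhfpl3. None had an unadjusted p below 0.05 there, against 6.5% of all genes. No injured group was free of overlap with its sham group for any of the 10 genes, where 10.2% of all genes were on the fish oil diet and 11.6% on the purified diet. Averaged over both diets, injury gave 5 genes above 0, against 50.3% of all genes, and a median of 0.03, with 95% half-widths of 0.27 for Vcan to 0.78 for C1ql1. None had an unadjusted p below 0.05, against 3.6%.

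Fish oil against purified diet in injured mice gave 7 genes above 0, against 50.8% of all genes, a median of 0.10 against 0.01 over all genes, and no unadjusted p below 0.05, against 10.7% of all genes. Groups without overlap were 0 of 10 there, against 11.6% of all genes, and 1 of 10 in sham mice, against 13.8%. In sham mice 10 of 10 genes were above 0, against 51.1% of all tested genes, and the median was 0.35 against 0.01. Only C1ql1 had an unadjusted p below 0.05 there, against 3.69% of all genes, and that value rests on fish oil sham 2 as given above. Without fish oil sham 2 Vcan was at -0.04 in place of 0.04, and Lhfpl3 at 0.03 in place of 0.55. Without purified sham 3 Sox10 was at -0.07 in place of 0.19. Ptprz1 was at 0.07 without fish oil sham 4, in place of 0.27. Without fish oil sham 3 Lhfpl3 and Ptprz1 were instead higher, at 0.80 and 0.51. The 10 genes vary together in blocks, so they do not count as 10 separate observations. Averaged over injury states, diet gave 8 genes above 0, against 52.5% of all genes, and a median of 0.23. C1ql1 was at 0.81 ± 0.34 there (unadjusted p of 0.0366, adjusted p of 0.546, edgeR), where 8.85% of all genes had an unadjusted p below 0.05. This C1ql1 value was 0.38 without fish oil sham 2 and 0.98 without purified sham 4.

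The interaction, the injury difference on fish oil minus that on the purified diet, was below 0 for 10 of 10 genes, with a median of -0.31 against -0.02 over all genes. It ran from -0.08 for Olig2 to -1.29 ± 0.68 for C1ql1, and no gene had an unadjusted p below 0.05, against 5.76% of all genes. Of all tested genes, 47.6% were above 0 in the interaction. Without both purified injured 3 and fish oil sham 2, C1ql1 was at -0.29 and Ptprz1 at -0.18, in place of -1.29 and -0.38. Without fish oil sham 3 these genes were at -1.65 and -0.63. Single libraries left out turned the sign of Pdgfra (0.11 without purified injured 4), Olig2 (0.08 without fish oil sham 3) and Sox10 (0.12 without purified sham 3). The interaction is made of the same 4 group means as the comparisons above. The fish oil sham and purified injured means both enter it with a negative sign. Beyond the fits with libraries left out, the part of single high libraries in either group was not tested.

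**Figure D4:**
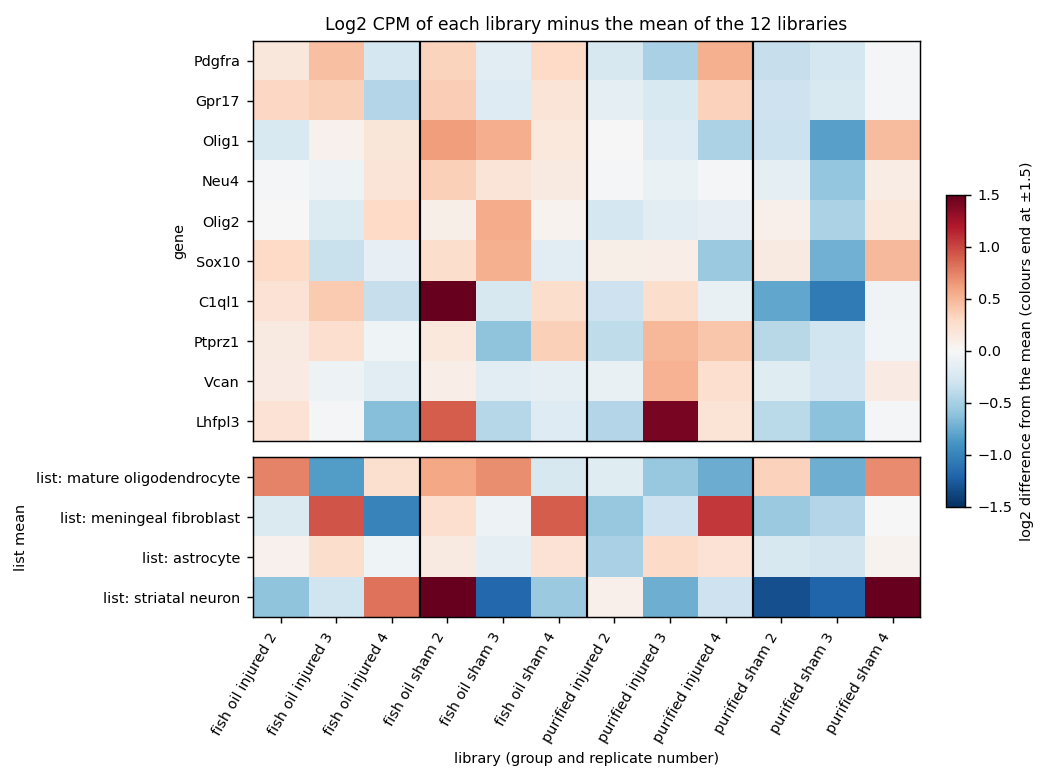
Log2 CPM of the 10 precursor genes (upper block) and mean log2 CPM of 4 marker lists (lower block) in the 12 libraries, each row set against its mean over the libraries, with colours ending at a difference of 1.5 either way. Purified sham 3 is the lowest library for 6 of the 10 genes, and in purified injured 3 high Lhfpl3 (92.6 CPM), Vcan and Ptprz1 stand beside low Pdgfra (51.9 CPM).

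The other genes of the lineage were followed by stage. Of 11 further precursor genes, such as Cspg4 and Sox6, 3 were above 0 after injury on the fish oil diet and 8 on the purified diet, with medians of -0.23 and 0.11 and none called. In sham mice 8 of these 11 were higher on fish oil, with a median of 0.11, and 4 of 11 were above 0 in the interaction, with a median of -0.27. Megf11 had the smallest unadjusted p of this list in 3 comparisons. Its values were 12.3, 14.7 and 14.3 CPM in fish oil injured libraries, and 23.2, 8.64 and 16.5 CPM in fish oil sham. It had 18.4, 8.48 and 15.4 CPM in purified injured libraries, and 8.23, 7.15 and 9.38 CPM in purified sham. The groups of purified injured and purified sham overlapped through injured 3, and the difference was 0.77 ± 0.34 (adjusted p of 0.763, edgeR).

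Of 9 genes of committed and newly formed oligodendrocytes, 3 were above 0 after injury on the fish oil diet and 5 on the purified diet, with medians of -0.15 and 0.14. In sham mice 9 of 9 were higher on fish oil, with a median of 0.23 and none called. The 14 mature oligodendrocyte genes had a median of -0.16 after injury on fish oil, with 14 of 14 below 0, and of -0.69 on the purified diet, again with 14 of 14 below 0. In injured mice 14 of 14 were higher on fish oil, with a median of 0.66, and in sham mice 14 of 14, with a median of 0.19. None of them was called or had an unadjusted p below 0.05. Their summed CPM was 2053 to 5830 in fish oil injured libraries, 2958 to 5513 in fish oil sham, 2122 to 3111 in purified injured and 2001 to 5915 in purified sham, so that the groups overlapped. After injury on the purified diet, the medians of the precursor genes, at 0.21, and of the mature genes, at -0.69, thus had opposite signs, a contrast that was not tested. Among the precursor genes, Olig1, Olig2 and Sox10 were below 0 there, at -0.09, -0.13 and -0.14. Without purified injured 4, Pdgfra went from 0.21 to -0.15 and Gpr17 from 0.20 to 0.01.

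The 9 matrix and ligand partners of Vcan and Ptprz1 were the lecticans Ncan, Bcan and Acan with Tnr, Tnc, Hapln1, Ptn, Mdk and Cntn1. After injury 5 of 9 were above 0 on fish oil (median of 0.01), and 9 of 9 on the purified diet (median of 0.42). Ncan, the gene of neurocan, had 252, 336 and 249 CPM in purified injured libraries, and 203, 202 and 204 CPM in purified sham, which did not overlap. Its difference was 0.46 ± 0.15, with an unadjusted p of 0.0092 and an adjusted p of 0.763 by edgeR's test. Of all genes, 11.6% had purified injured and purified sham libraries without overlap. Among 8 Notch, ID and related genes that hold back differentiation, 3 were above 0 after injury on the fish oil diet and 5 on the purified diet, with medians of -0.06 and 0.11.

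A list of 7 cell division genes was included because precursors are the main dividing cells of adult cortex. After injury they had a median of 0.12 on the fish oil diet, with 4 of 7 above 0, and of 0.44 on the purified diet, with 5 of 7 above 0. Summed CPM of the list was 36.6 to 46.9 over the libraries, and Pcna alone had 31.5 to 41.6 CPM. The other genes of the list were thus low, and Cdk1 was at 0 in a purified injured library. Top2a, the topoisomerase of dividing cells, had 2.40, 0.652 and 0.900 CPM in purified injured libraries, and 0.198, 0.468 and 0.463 CPM in purified sham. The groups did not overlap, as for 11.6% of all genes, and the difference was 1.81 ± 0.55, with an unadjusted p of 0.0065 and an adjusted p of 0.763 by edgeR's test. Most of the purified injured mean came from injured 2, which was not among the high libraries for Pdgfra. In fish oil libraries Top2a had 0.618, 0.772 and 0.346 CPM after injury, and 0.627, 0.648 and 0.936 CPM after sham handling.

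Marker lists of cells outside the lineage were followed in the same fit, and none of their genes was called. In sham mice 6 of 6 microglia genes were higher on fish oil, with a median of 0.30, and 6 of 6 endothelial genes were lower, with a median of -0.78. Of the 6 cortical neuron genes, 2 were higher and 4 lower there, with a median of -0.10. After injury on the purified diet the medians were 0.15 for microglia, -0.39 for endothelial and -0.17 for cortical neuron genes. The part of these cells in the values of the precursor genes was not tested.

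The genes whose library pattern was most like each precursor gene were sought among 13125 genes of at least 1 CPM, over 12 libraries, as a description. For Pdgfra they were Tmem132e, Adra2a and Hpcal1, with r of 0.97, 0.96 and 0.95, and for Gpr17 Arhgap6, Nrp2 and Mycl, with r of 0.97, 0.96 and 0.96. For Sox10 they were Insc, Ppp1r14a and Litaf (r of 0.96, 0.95 and 0.95), and for Olig1 Trem2, Chchd5 and Cd180 (0.92, 0.92 and 0.90). Ptprz1 was most like Amot, Slc1a3 and Lman1, with r of 0.97, 0.97 and 0.95. Slc1a3, the astrocyte glutamate transporter gene, is also in the astrocyte list. For Lhfpl3 they were Pde3a, Pde1c and Cacng5 (r of 0.99, 0.98 and 0.97), and for Vcan Agmo, Ebf3 and Tpbgl (0.95, 0.92 and 0.91). C1ql1 was most like Cacng4, Lag3 and Arhgdib (r of 0.94, 0.92 and 0.91), where Cacng4 is itself one of the further precursor genes. For Olig2 they were Atp5s, Aimp1 and Eif2b1 (r of 0.92, 0.89 and 0.88), and for Neu4 Bpgm, Rnf7 and Scd2 (0.87, 0.86 and 0.86), the lowest first value of the 10 genes.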

How the data were processed

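RNA was isolated from brain with a column kit, 500 ng entered a strand-preserving library kit, and paired reads were sequenced, per the labels' protocols. The submitters' processing notes name STAR 2.5.2a, featureCounts 1.4.3-p1 and mm10. The strand setting, annotation release and multi-mapper rule were not given in the sources used here. The authors deposited raw read counts per gene. The files hold 20514 values of 2 against 11222 of 1, so both mates of a pair may be counted.

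Symbols and positions came from GENCODE M21 (GRCm38), in which 53274 of 53379 identifiers matched without version and 50604 with it. No library pair of a group agreed within sampling noise, and each library was treated as 1 replicate. Such spread can also arise between samples of the same animal, so it does not show that each library came from its own animal. Genes were kept with filterByExpr (minimum count 10), leaving 19252. TMM scaling and edgeR 4.0.16 (glmQLFit and glmQLFTest, robust, R 4.3.3) were used on all 12 libraries with 4 group means and 8 residual degrees of freedom. Benjamini-Hochberg adjustment ran over all tested genes, with a threshold of 0.05. The SE is the log2 fold change divided by the root of the F statistic, and 95% intervals use 8 degrees of freedom. Correlations use log2 CPM (prior count 2) and 100000 permutations, two-sided. In a simulation of injury on the purified diet, 100 genes were changed 2-fold and 100 were changed 4-fold. The fit recovered 45 of the former and 86 of the latter, and 5 unchanged genes were called. The changed genes had a mean of at least 1 CPM, and noise was drawn around 1 mean per gene. With many genes changed at once the adjusted threshold is easier to meet, so these shares may be too high for a lone gene. The absence of a call alone therefore does not exclude a 2-fold difference, and the 95% intervals differed by gene. For injury on the purified diet the interval, not adjusted for the number of genes, was -0.39 to 0.81 for Pdgfra. For Lhfpl3 it was -0.15 to 2.03 on the same log2 scale.

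The 10 genes, the 15 other lists of 116 genes and the tests were chosen with earlier results of these data known. All 10 genes are named; of each other list, the gene with the smallest unadjusted p in a comparison may be named as a value, and of all genes the 3 most like each precursor gene. Alternatives were RLE and upper-quartile scaling, other filters, DESeq2 1.42.0, and limma-voom 3.58.1 with and without a correlation within library name prefixes. Further ones were fits on the compared groups alone, a replicate block, and libraries left out. In each group libraries 3 and 4 shared the first number of the library name, and library 2 had another. What that number marks is not given in the labels, and the correlation fitted for it was -0.26.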

Additional observations from a re-analysis of the deposited data

How the results depend on the processing

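The 10 precursor genes were not called in any of the 7 comparisons under any of 22 settings, and the lowest adjusted p was 0.221, for Pdgfra in the diet average without purified injured 4. Of 1510 recomputed values, 1494 moved by less than 1 SD between libraries and 16 by more, 9 of these with 1 library left out. Of the 70 pairs of gene and comparison, 28 changed sign under at least 1 setting. Counts over all genes depended on the tool. DESeq2 called 37 genes for injury on the fish oil diet, 14 for injury on the purified diet, 186 for diet in injured mice, 17 for diet in sham mice, 3 for injury averaged over both diets, 99 for diet averaged over injury states and 21 for the interaction. With limma-voom 1 gene was called for injury on fish oil and 2 for the injury average; with the library name correlation these were 1 and 2, and the diet average had 2. With no filter on low counts 1 gene was called for the injury average and 2 for the diet average. Without purified injured 3 and fish oil sham 2, 1 gene was called for diet in injured mice, and the median of the precursor genes for injury on the fish oil diet was 0.070. Leaving out 1 library at a time gave 0 to 7 calls for injury on the fish oil diet, 0 to 83 for diet in injured mice (83 without purified injured 4, 14 without fish oil injured 2, 1 without purified injured 3) and 0 to 6 for the diet average, and medians of the precursor genes of -0.27 to 0.064 for injury on the fish oil diet. The cause of these differences was not tested. With the replicate number as a block 0 genes were called in all 7 comparisons. Deviations of libraries with the same number had correlations from -0.37 to 0.28, so the numbers are not shown to pair libraries.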
